A study of Mus musculus with 6 samples.

Results

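Nuclear receptors are transcription factors that small lipophilic molecules, such as steroids, retinoids, oxysterols and fatty acids, switch on or off. Most bind DNA as dimers, often with a retinoid X receptor as the partner, and recruit coactivators or corepressors to their target genes. In the lung, corticoid receptors mediate the response to glucocorticoids, PPARγ and LXRα govern lipid handling in macrophages, and RORα drives part of the circadian clock. The genes described here were 10 receptors picked by name: the corticoid receptors Nr3c1 and Nr3c2, the fatty acid receptors Pparg and Ppard, the rapidly induced orphan receptors Nr4a1 and Nr4a2, and Rora, Rxra, Nr1h3 and Esrra. Of these 10, 6 had an annotated probe, 1 each, and all 6 probes passed the filter on detection. The annotation used here pairs no probe with Nr3c1, Nr3c2, Ppard or Nr4a1, so these 4 genes are not analysed here and nothing below describes the level of a corticoid receptor. The 6 genes were among 9383 named genes tested.

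The samples were whole lungs of 3 mutant mice (Tmem100 2loxP/2loxP;ROSA26+/CreER) and 3 control mice (Tmem100 2loxP/2loxP), 1 array per mouse. All 6 mice carried Tmem100 alleles flanked by loxP sites on both chromosomes, and all received 2 injections of 0.1 mg tamoxifen per g of body weight, 7 days before the lungs were taken. The mutants carried in addition CreER, a tamoxifen-activated Cre recombinase, at the broadly expressed ROSA26 locus, so recombination is not limited to one cell type. The samples used here include no mice without tamoxifen and none with CreER alone, so the effect of CreER itself cannot be told apart from that of the deletion. Tmem100, which encodes an endothelial membrane protein, had normalized log2 intensities of 8.44, 9.43 and 9.51 in mutant mice 1, 2 and 3, against 11.16, 15.36 and 10.69 in control mice 1, 2 and 3, without passing the threshold (adjusted p = 0.0749). The sources used here do not say whether its probe lies in the deleted part. Between 12781 and 13046 probes were detected on mutant arrays and between 13354 and 13749 on control arrays. All 9 markers of alveolar type 2 cells, the surfactant-making cells that define lung, were detected on every array, with a mean log2 intensity of 13.63 to 13.99 in mutants and 13.76 to 14.01 in controls.

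Of the 6 receptor genes, Rora rose and Nr1h3 fell in mutant lungs, and Nr4a2, Pparg, Rxra and Esrra did not pass the test. These 2 of 6 probes stand against 26.7% of all 13361 probes past the threshold, 13.3% higher and 13.5% lower in mutants, and against 27.2% of the 9383 genes, so the share is near the background. The groups did not overlap for Rora, Nr1h3 and Esrra, 3 of the 6, where 47.5% of all probes had groups that did not overlap. Every value below is a normalized log2 intensity of one probe, which is compared between mice and not between genes.

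**Figure D1:**
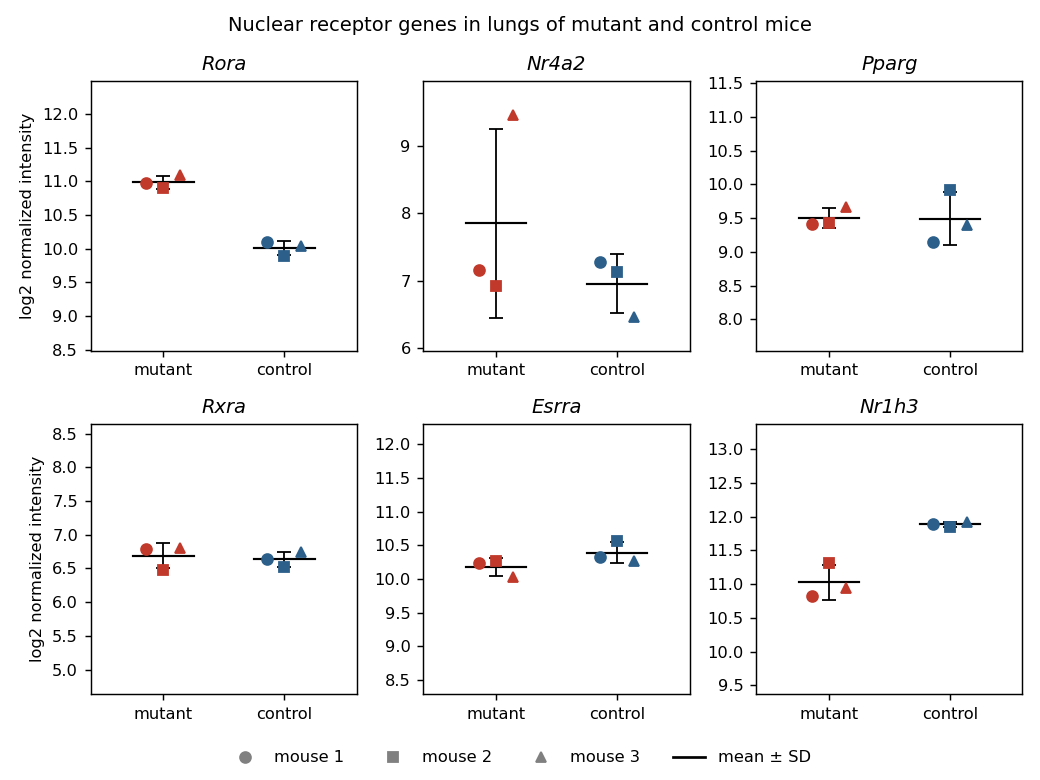
Normalized log2 intensity (vertical axis, each panel spanning 4 log2 units) of the 6 receptor genes in each mutant (red) and control (blue) mouse, with the mean and SD of 3 mice. Rora lies near 11 in mutants and 10 in controls, Nr1h3 is lower in all 3 mutants, and mutant mouse 3 stands alone for Nr4a2.

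Rora encodes RORα, a receptor that binds DNA as a monomer and activates clock genes such as Arntl. Its log2 intensity was 10.97, 10.89 and 11.09 in mutant mice 1, 2 and 3, against 10.09, 9.89 and 10.04 in control mice 1, 2 and 3. All 3 mutants were above all 3 controls, and the mice of a group were close together, with an SD of 0.10 in mutants and 0.11 in controls. Rora was 1.97-fold higher in mutants, a log2 difference of 0.98 ± 0.12 (SE), with a 95% interval of 0.70 to 1.25 and an adjusted p of 0.00379. The difference was larger than that of most probes: 8.85% of all tested probes had a larger one in either direction. Before normalization the probe read 2193, 2042 and 2242 in mutants, against 1686, 1205 and 1290 in controls. These raw intensities show the same separation. With any one mouse left out, the log2 difference stayed between 0.92 and 1.02, with an adjusted p of 0.00932 to 0.0221.

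Nr1h3 encodes LXRα, the oxysterol receptor of macrophages and liver, which turns on genes for cholesterol export. Its log2 intensity was 10.82, 11.32 and 10.94 in mutant mice 1, 2 and 3, against 11.89, 11.85 and 11.92 in control mice 1, 2 and 3. Every mutant was lower than every control. The controls stood close together, with an SD of 0.04, while the mutants were more spread, with an SD of 0.26. Nr1h3 was 1.82-fold lower in mutants, a log2 difference of -0.86 ± 0.15 (SE; 95% interval -1.22 to -0.51; adjusted p = 0.00895). Mutant mouse 2 was the highest of the mutants, and without it the log2 difference was -1.01. With any one mouse left out the adjusted p was 0.0104 to 0.0389. In a whole lung, fewer cells that express a gene and less of its RNA in each cell cannot be told apart. Of 8 measured alveolar macrophage markers, Krt19 and Ctsk rose, Car4 fell and 5 did not pass, where 27.2% of all named genes passed. Unadjusted, 2 were higher and 3 lower by limma. Marco and Cidec differed by -0.66 and -1.48 with no overlap of the groups and did not pass (adjusted p = 0.0516 and 0.0886). Mrc1, Chil3 and Krt79 had positive differences, overlapped and did not pass. Without control mouse 2, 0 markers passed as higher and 2 as lower. Car4 passed with each mouse left out, while neither Krt19 nor Ctsk passed without control mouse 1 (adjusted p = 0.0755 and 0.101), control mouse 2 (0.0655 and 0.0768) or mutant mouse 2 (0.061 and 0.0811). Krt19 also did not pass without mutant mouse 3 (0.0513), nor Ctsk without mutant mouse 1 (0.0688). The mean log2 intensity of the 8 markers overlapped between the groups, at 9.60 to 10.05 in mutants and 9.85 to 10.14 in controls. Each of the 8 was detected on at least 1 array of each group. Which cells of the whole lung gave the signal of Car4 or of the other markers was not measured. Of 7 endothelial markers, 4 fell in the same mice. Siglecf and Itgax, which define these macrophages, had no annotated probe, and the part of macrophage number in the Nr1h3 result was not tested.

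Nr4a2 encodes NURR1, a receptor without a known ligand that is transcribed within minutes of many stimuli. Its log2 intensity was 7.15, 6.93 and 9.46 in mutant mice 1, 2 and 3, against 7.28, 7.13 and 6.46 in control mice 1, 2 and 3. Mutant mouse 3 alone was high, while mutant mice 1 and 2 lay within the range of the controls. The log2 difference was 0.89 ± 0.65 (SE; 95% interval -0.63 to 2.42) and did not pass (adjusted p = 0.337), and without mutant mouse 3 it was 0.08. The interval is wide, so neither no difference nor a difference of several fold can be set aside at this number of mice. The raw readings of this probe were 402, 383 and 892 in mutants, against 486, 428 and 356 in controls, close to the background in all mice but mutant mouse 3.

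Pparg encodes PPARγ, the fatty acid receptor that drives fat cell and alveolar macrophage differentiation. Its log2 intensity was 9.42, 9.43 and 9.67 in mutant mice 1, 2 and 3, against 9.15, 9.92 and 9.40 in control mice 1, 2 and 3. The mutants lay inside the range of the controls, which control mouse 2 stretched upward. The log2 difference was 0.01 ± 0.21 (SE; adjusted p = 0.967), and its 95% interval of -0.48 to 0.50 allows a change of up to about 0.50 in either direction. The mean log2 intensity of the 5 measured adipocyte markers was 6.76, 6.72 and 6.59 in mutant mice 1, 2 and 3, against 7.14, 9.13 and 6.74 in control mice 1, 2 and 3, with control mouse 2 again the highest. Adipoq fell in mutants (adjusted p = 0.0409), but did not pass without background correction (0.086). Nor did it pass with control mouse 1 or any one mutant left out (0.086 to 0.101). Cidec, Lep, Cidea and Lipe did not pass, though 1 of the 5 markers passed as higher without control mouse 2. Without control mouse 2, the log2 difference of Pparg was 0.23 (adjusted p = 0.334).

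Rxra encodes RXRα, the common partner of PPARs, LXRs and retinoic acid receptors. Its probe was dim, with log2 intensities of 6.79, 6.48 and 6.80 in mutant mice 1, 2 and 3, against 6.63, 6.52 and 6.75 in control mice 1, 2 and 3. The groups overlapped, and the lowest detected signals of the 6 arrays lay between 5.89 and 6.13. The log2 difference was 0.05 ± 0.14 (SE; 95% interval -0.27 to 0.38; adjusted p = 0.793). Detection p ranged from 0.00627 to 0.0188, so this probe reads little above the negative controls.

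Esrra encodes ERRα, an orphan receptor that works with PGC-1 coactivators on mitochondrial genes. Its log2 intensity was 10.24, 10.26 and 10.02 in mutant mice 1, 2 and 3, against 10.33, 10.57 and 10.27 in control mice 1, 2 and 3. All 3 mutants were below all 3 controls, but by little: the highest mutant and the lowest control differed by less than the spread within either group. The log2 difference was -0.22 ± 0.13 (SE; 95% interval -0.53 to 0.10) and did not pass (adjusted p = 0.265).

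**Figure D2:**
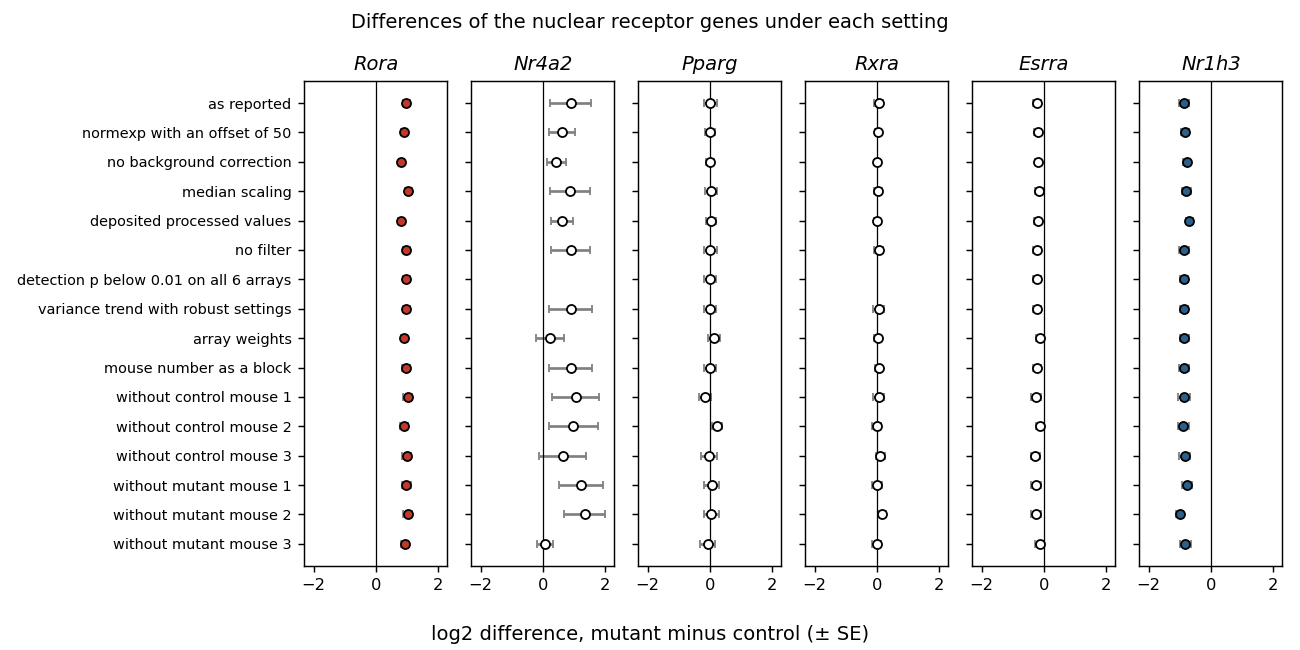
Log2 difference of each receptor gene, mutant minus control, with its SE (horizontal axis), under the reported setting and each alternative (rows, missing where the probe was filtered out). Filled points passed an adjusted p of 0.05, red higher and blue lower in mutants: Rora and Nr1h3 are filled in every row, and Nr4a2 lies near 0 without mutant mouse 3.

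Among the other nuclear receptors, a share near that of all genes passed, and at the reported setting those that passed were all higher in mutants. The list held 39 genes, of which 15 had an annotated probe and 14 passed the detection filter. Of these 14, 4 rose and none fell, where 12.7% of all named genes rose and 14.5% fell, and 27.2% passed in either direction. By limma's unadjusted p under 0.05, 4 were higher and 3 lower. The median log2 difference of the 14 was -0.01, against 0.01 over all genes.

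Vdr, the vitamin D receptor, had log2 intensities of 9.20, 9.20 and 9.38 in mutants, against 8.38, 8.11 and 8.78 in controls, and was 1.79-fold higher (log2 0.84 ± 0.18 SE, adjusted p = 0.0172). Its second probe was also higher, by 1.03 (adjusted p = 0.00701). Rarb, a retinoic acid receptor that retinoic acid itself induces, had 8.890, 8.998 and 8.759 in mutants, against 8.070, 8.142 and 8.337 in controls, and was 1.62-fold higher (adjusted p = 0.00996). Its second probe, dimmer in both groups, was higher by 1.24. Rxrb, which encodes RXRβ, had 12.32, 12.26 and 12.38 in mutants, against 11.77, 11.89 and 11.96 in controls, a log2 difference of 0.44 ± 0.11, and its second probe rose as well. Nr6a1, the germ cell nuclear factor, had 8.26, 8.32 and 8.27 in mutants, against 7.73, 7.56 and 7.94 in controls, a log2 difference of 0.54 ± 0.13. In all of these 4 genes the groups did not overlap. The retinoic acid receptor Rarg differed by -0.52 ± 0.16 (adjusted p = 0.0524), and Nr2f1, which encodes COUP-TFI, by -0.60 ± 0.21 (adjusted p = 0.0759). Neither of these passed. Nr1d1 and Nr1d2 encode the REV-ERB repressors, which compete with RORα for the same DNA sites. Nr1d1 differed by 0.39 and Nr1d2 by -0.04, and neither passed.

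The calls of Vdr, Rxrb and Nr6a1 depended on single mice, while Rarb passed with each mouse left out. The Vdr call was lost without control mouse 1 (adjusted p = 0.0635). For Rxrb it was lost on leaving out control mouse 1 (0.0993), control mouse 2 (0.0648) or any mutant, 1 (0.0781), 2 (0.055) or 3 (0.0532). For Nr6a1 it was lost on leaving out control 1 (0.0789) or 2 (0.0647) or mutant 1 (0.0652) or 2 (0.0651), as well as with the deposited processed values (0.0784). Rarg passed without control mouse 2 (0.0433) and Nr2f1 without control mouse 3 (0.014). The number of the 14 that passed was 1 without control mouse 1 and 2 without mutant mouse 1 or 2. Without control mouse 2, 4 passed, 2 as higher and 2 as lower. With array weights 8 passed, 5 as higher and 3 as lower. Rarg passed as lower with an offset of 50 (adjusted p = 0.0381), without background correction (0.0373), with a detection p below 0.01 on all arrays (0.0378), with array weights (0.0232) and with a variance trend (0.0371). Nr2f1 passed with array weights (0.0252), so whether any of these receptors fell depended on the setting.

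Coregulators carry the signal of a bound receptor to chromatin. Of 23 in the list 13 were measured, of which 4 rose and none fell (unadjusted, 5 higher and 1 lower by limma). Over all named genes 12.7% rose and 14.5% fell. The median log2 difference of the 13 was 0.05. Ppargc1a, which encodes PGC-1α, the coactivator of PPARs and ERRα, had 9.50, 9.47 and 9.95 in mutants, against 8.33, 8.63 and 8.77 in controls. It was 2.10-fold higher (log2 1.07 ± 0.18 SE, adjusted p = 0.00833), and the groups did not overlap. The coactivator genes Ncoa6 and Ncoa1 were higher by 0.59 ± 0.11 and 0.49 ± 0.11, Ncoa6 with both of its probes. Lcor, a ligand-dependent corepressor, was higher by 0.91 ± 0.20 and was detected on all 3 mutant arrays but on 1 control array. Without background correction Lcor was 1.18-fold higher and did not pass (adjusted p = 0.0517), nor did it with the deposited processed values (1.19-fold, 0.0947), without control mouse 2 (0.0529) or without mutant mouse 2 (0.0534). Ncoa1 lost its call on leaving out control mouse 1 (0.0659), control mouse 2 (0.0627), mutant mouse 1 (0.0734) or mutant mouse 2 (0.0565). A second, dimmer probe of Med1, a Mediator subunit gene, passed as higher by 0.73 (adjusted p = 0.0293), where its brightest probe did not pass. Of the 13, 2 passed without control mouse 2 or mutant mouse 2. Without background correction 5 passed, 4 as higher and 1 as lower.

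**Figure D3:**
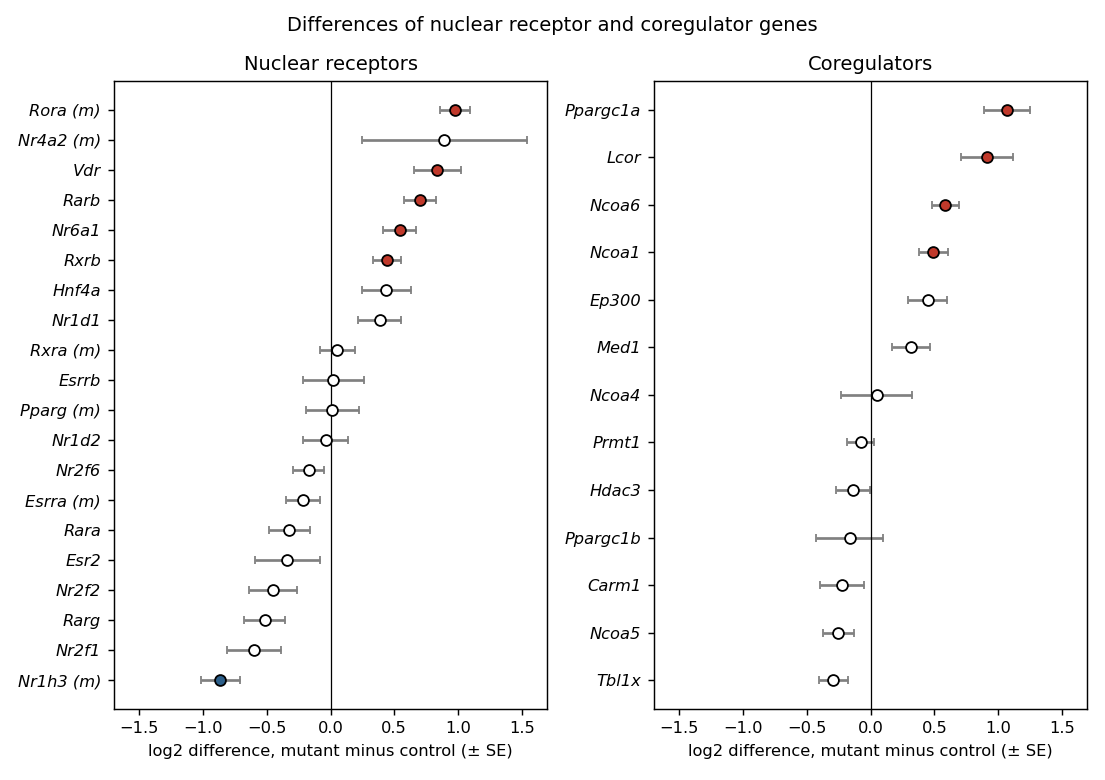
Log2 difference, mutant minus control, with its SE (horizontal axis), for the 20 measured nuclear receptors, with (m) after the 6 described above, and for the 13 measured coregulators. Filled points passed an adjusted p of 0.05, red higher and blue lower in mutants: Nr1h3 is the sole receptor among the 20 filled in blue.

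RORα and the REV-ERBs act on clock genes through a shared DNA element, the receptor motif preceded by a thymine, and Arntl, which encodes BMAL1, is its best known carrier. Of 17 clock genes 14 were measured, of which 4 rose and none fell (unadjusted, 5 higher and 1 lower by limma). Among all named genes 12.7% rose and 14.5% fell. The median log2 difference of the 14 was 0.31. Within this list the element was searched for in Arntl alone. Arntl had 8.73, 7.97 and 8.76 in mutants, against 6.97, 6.26 and 6.81 in controls, without overlap. It was 3.51-fold higher (log2 1.81 ± 0.27 SE, adjusted p = 0.00615), but its probe is dim in controls, and it was 1.68-fold higher without background correction, 1.59-fold with the deposited processed values and 2.21-fold with an offset of 50. The clock repressor genes Cry2, Per1 and Per2 rose by 1.36 ± 0.22, 1.04 ± 0.15 and 0.82 ± 0.12, Per1 and Per2 with both probes each. The clock gene Nfil3, whose difference of 2.00 was the largest of the list, did not pass (adjusted p = 0.0536), but did without mutant mouse 3 (2.305-fold instead of 4.001-fold, 0.016) or 2 (0.0499), with an offset of 50 (0.0425), with median scaling (0.0499), with the stricter detection filter (0.0415) and with array weights (0.0474). Dbp, another clock gene of the list, differed by -1.13 with no overlap of the groups and did not pass (adjusted p = 0.061). Of the 14, 7 passed without mutant mouse 3, with 6 higher and 1 lower. The sources used here give no hour of collection, so time of day and group cannot be told apart for these genes.

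The upstream sequence is shown for Rora and Nr1h3, the receptor genes that changed, and for Arntl. A loose form of that element, TAGGTNA with N as any base, was searched for there. Sequences are from RefSeq, build GRCm38.p6, 5′ to 3′ on the strand of the gene, in lower case, and capitals mark matches to TAGGTNA.
Rora, chr9:68653536-68653785, plus strand: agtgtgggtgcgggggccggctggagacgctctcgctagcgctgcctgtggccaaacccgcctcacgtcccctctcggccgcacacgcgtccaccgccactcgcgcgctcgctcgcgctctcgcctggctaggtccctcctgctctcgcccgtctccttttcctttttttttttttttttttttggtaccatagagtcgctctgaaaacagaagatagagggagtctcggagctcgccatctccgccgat
Nr1h3, first of 2 start sites, chr2:91195117-91195366, minus strand: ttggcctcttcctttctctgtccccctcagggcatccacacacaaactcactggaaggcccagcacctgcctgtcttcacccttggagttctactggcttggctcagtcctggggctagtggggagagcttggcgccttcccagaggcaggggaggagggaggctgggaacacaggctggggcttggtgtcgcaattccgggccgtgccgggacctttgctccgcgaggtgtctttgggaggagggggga
Arntl, second of 2 start sites, chr7:113207261-113207510, plus strand: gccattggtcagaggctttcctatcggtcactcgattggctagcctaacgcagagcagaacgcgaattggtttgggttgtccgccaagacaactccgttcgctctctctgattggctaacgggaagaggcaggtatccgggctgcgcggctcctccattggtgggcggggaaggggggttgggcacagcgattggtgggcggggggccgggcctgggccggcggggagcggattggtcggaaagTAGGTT
Arntl, first element, chr7:113207500-113207514: gaaagTAGGTTAgtg
Arntl, second element, chr7:113207536-113207551: gaaagTAGGTCAggga

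The long Arntl run ends just before the start site, inside the first element. Searched on both strands of the 300 bases around each start site, TAGGTNA was found in 8.29% of 32851 promoter windows, and the plain receptor motif AGGTCA, which it overlaps, in 16.3%. TAGGTNA lets any base stand for the C of AGGTCA and sets no base before its thymine. The first Arntl match, TAGGTTA, does not hold AGGTCA. Around the second Arntl start site TAGGTNA matched at 2 places, and AGGTCA matched inside the second of them. Neither motif matched in the windows of Rora, Nr1h3, Nr4a2 or Esrra, while AGGTCA alone matched in windows of Pparg and Rxra, 2 times for each gene. A match says only that the letters are there, and binding was not measured in these samples.

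LXR target genes moved in both directions. Of 17 genes 13 were measured, counting Nr1h3 itself, of which 3 rose and 2 fell. Across all named genes 12.7% rose and 14.5% fell. The median log2 difference of the 13 was 0.14. Pltp, the phospholipid transfer protein, had 11.71, 11.91 and 11.62 in mutants, against 12.94, 12.74 and 12.48 in controls. It was 1.96-fold lower (log2 -0.97 ± 0.16 SE, adjusted p = 0.00716), with both probes lower and no overlap. Mylip, a ubiquitin ligase that removes the LDL receptor, passed as higher (adjusted p = 0.00265) and was below detection on every control array. Its size depended on the background correction: the measured means differed 2.60-fold, or 1.29-fold without that correction, 1.32-fold with the deposited processed values and 1.61-fold with an offset of 50. The lipoprotein lipase gene Lpl was 2.02-fold higher, and the cholesterol exporter gene Abcg1 was higher by 0.43 (adjusted p = 0.0345). The Abcg1 call was lost on leaving out any control, 1 (0.0636), 2 (0.0958) or 3 (0.0697), or mutant 1 (0.103) or 2 (0.0855), as well as with the deposited processed values (0.0658) and with no filter (0.0534). Apoe and Srebf1, classical LXR targets, differed by -0.15 and 0.00 and did not pass.

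PPAR target genes passed at a share near that of all genes. Of 26 genes 15 were measured, of which 3 rose, 1 fell and 11 did not pass, where 27.2% of all named genes passed. The median log2 difference of the 15 was -0.04. Pdk4, a kinase that spares glucose by shutting pyruvate dehydrogenase, had 11.61, 11.43 and 11.66 in mutants, against 8.69, 10.41 and 9.88 in controls, and was 3.74-fold higher (log2 1.90 ± 0.40 SE, adjusted p = 0.0153). Angptl4, a secreted inhibitor of lipoprotein lipase, had 13.26, 13.36 and 12.93 in mutants, against 10.68, 11.27 and 12.25 in controls, and was 3.44-fold higher (adjusted p = 0.0154). Lpl, named above, was the third that rose. In these 3 genes every mutant exceeded every control. The Angptl4 call was lost without control mouse 2 (adjusted p = 0.0516). Adipoq, the fat cell hormone adiponectin, had 6.387, 5.968 and 5.996 in mutants, where it was detected on 1 array, against 9.373, 11.849 and 7.406 in controls. It was 10.7-fold lower (adjusted p = 0.0409), but 4.83-fold lower without control mouse 2 and 22.5-fold lower without control mouse 3. Its call was lost on leaving out control mouse 1 (0.101), mutant mouse 1 (0.086), mutant mouse 2 (0.0944) or mutant mouse 3 (0.0905), without background correction (3.44-fold, 0.086), with the deposited processed values (0.172), without the filter (0.0629) and with a variance trend (0.0756). With an offset of 50 it was 5.28-fold lower.

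The corticoid receptors themselves had no annotated probe, but genes around them did. Of 20 listed corticoid target genes 15 were measured, counting Per1 a second time, of which 12 rose and none fell. All 15 had a positive difference (unadjusted, 15 higher and 0 lower by limma). Their median log2 difference was 1.03, against 0.01 over all genes, and 12.7% of all genes rose. This list was chosen with earlier results of these data known, so the contrast with all genes is a description and not a test. Fkbp5, a co-chaperone that lowers hormone binding by corticoid receptors, had 12.52, 12.63 and 12.42 in mutants, against 8.97, 8.36 and 9.93 in controls. Its log2 difference was 3.44 ± 0.36 (SE, adjusted p = 0.00305). Ddit4, an inhibitor of mTORC1, was higher by 2.91 ± 0.16. The metallothionein gene Mt1 passed as higher (adjusted p = 0.00768), but its raw intensity in mutant mouse 3, 65680, was the highest of any probe on that array, so no size is given for it. The metallothionein gene Mt2 was 3.95-fold higher, but 1.80-fold without background correction, 1.97-fold with the deposited processed values and 2.41-fold with an offset of 50, and its call was lost without control mouse 1 (adjusted p = 0.0577). Between 10 and 12 of the 15 passed with a mouse left out. Many of these genes also respond to signals other than corticoids, and the hormone was not measured. With no hour of collection given, time of day and group cannot be told apart here either.

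Genes that supply ligand to the corticoid receptors or hold them ready were split. Of 19 in that list 13 were measured, counting Fkbp5 a second time, of which 3 rose and 2 fell. For all named genes the shares were 12.7% higher and 14.5% lower. The median log2 difference of the 13 was 0.18. Abcb1b, an exporter that carries steroids out of cells, had 9.22, 9.57 and 9.67 in mutants, against 7.61, 7.83 and 8.09 in controls. It was 3.12-fold higher (log2 1.64 ± 0.18 SE, adjusted p = 0.0032), or 1.96-fold without background correction and 2.06-fold with the deposited processed values. Fkbp4, the co-chaperone that raises hormone binding, had 12.01, 12.19 and 11.61 in mutants, against 12.82, 12.88 and 12.65 in controls, a log2 difference of -0.85 ± 0.17 (adjusted p = 0.0136). In both genes the groups did not overlap. Without control mouse 1 the call of Fkbp4 was lost (0.0543). Hspa4, an HSP70 relative, was higher by 0.66 ± 0.15, but lost its call on leaving out control mouse 1 (adjusted p = 0.0802), control mouse 3 (0.0563), mutant mouse 1 (0.0626) or mutant mouse 2 (0.0516), without background correction (0.0597) and with the deposited processed values (0.143). Hsd11b1, which regenerates active glucocorticoid, differed by 0.29 and did not pass, nor did any other of its probes. Of the 13, 2 passed without control mouse 1 and 3 without mutant mouse 1 or 2.

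The mean of the rapid response genes that accompany NR4A receptors was highest in mutant mouse 3, in which Nr4a2 was high. Of 21 genes 17 were measured, counting Dusp1 a second time. Among these 5 rose and none fell (unadjusted, 8 higher and 0 lower by limma), where 12.7% of all named genes rose. The median log2 difference of the 17 was 0.51. Their mean log2 intensity was 10.73, 10.92 and 11.52 in mutant mice 1, 2 and 3, against 10.52, 10.48 and 10.59 in control mice 1, 2 and 3. On this mean every mutant was above every control. Of the 17 genes 12 were highest in mutant mouse 3, 3 in mutant mouse 2, 1 in control mouse 2 and 1 in control mouse 3. Sik1, a kinase induced by cAMP, had 9.47, 9.68 and 11.38 in mutants, against 8.51, 8.31 and 8.78 in controls (log2 difference 1.64 ± 0.48 SE, adjusted p = 0.0427). Fos, a subunit of AP-1, had 10.76, 11.28 and 12.09 in mutants, against 9.56, 9.92 and 10.09 in controls (1.52 ± 0.33, adjusted p = 0.0171). Fosb differed by 1.15 ± 0.33 (adjusted p = 0.0432), and Zfp36, which destabilises short-lived mRNAs, by 1.08 ± 0.15 (adjusted p = 0.00493). These 4 had groups that did not overlap.

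Without mutant mouse 3, Sik1 was 2.06-fold higher instead of 3.12-fold (adjusted p = 0.0146). The Sik1 call was lost without control mouse 1 (0.114), 2 (0.116) or 3 (0.0729) or mutant mouse 2 (0.0544), without the filter (0.0655) and with a variance trend (0.0514). That of Fos was lost without control mouse 1 (0.0645). That of Fosb was lost on leaving out any control, 1 (0.0855), 2 (0.121) or 3 (0.0701), mutant mouse 2 (0.0997) or mutant mouse 3 (0.0858), without background correction (1.33-fold, 0.0553), without the filter (0.0662) and with array weights (0.0522). With the deposited processed values Fosb was 1.44-fold higher. Of the 17 rapid response genes, 1 passed without control mouse 1 and 2 with control mouse 2, control mouse 3 or mutant mouse 2 left out. Without mutant mouse 3, 5 passed, 4 as higher and 1 as lower, so that none fell depended on this mouse. Zfp36 passed with each mouse left out.

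The retinoid genes were also split. Their list holds genes that make or store the ligands of retinoic acid receptors and RXRs. It also holds Rarb, Tgm2 and Hoxa5, which do neither. Of 18 genes 8 were measured, counting Rarb a second time, of which 2 rose and 3 fell. Over all named genes 12.7% rose and 14.5% fell. The median log2 difference of the 8 was 0.00. Lrat, which stores retinol as esters, had 8.26, 9.18 and 8.38 in mutants, against 10.06, 10.60 and 10.50 in controls, and was 3.43-fold lower (log2 -1.78 ± 0.27 SE, adjusted p = 0.00618), or 2.22-fold with the deposited processed values. Aldh1a2, which makes retinoic acid in stromal and mesothelial cells, had 7.31, 7.71 and 6.44 in mutants, against 8.09, 8.62 and 8.46 in controls, and was 2.36-fold lower (adjusted p = 0.0306), or 1.44-fold without background correction and 1.45-fold with the deposited processed values. Both of its probes were lower. Its call was lost without control mouse 1 (adjusted p = 0.0593), 2 (0.0928) or 3 (0.0749) or mutant mouse 1 (0.0646). Tgm2, a retinoic acid target, fell by 0.44 (adjusted p = 0.0256), a call lost on leaving out any control, 1 (0.0603), 2 (0.0725) or 3 (0.0625), or mutant 1 (0.0859) or 2 (0.0559), and with median scaling (0.13). In contrast, Rdh11, which reduces retinal, and Rarb were the 2 that rose, Rdh11 by 0.59 ± 0.11. Of the 8, 3 passed without control mouse 1, 2 or 3 or mutant mouse 1.

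Beside Lrat and Aldh1a2, most measured stromal markers were lower in the same mice. Among 10 fibroblast and smooth muscle markers 7 fell and none rose (unadjusted, 7 lower and 0 higher by limma). Over all named genes 14.5% fell. Pdgfra, Dcn and Myh11 did not pass, with log2 differences of -0.04, 0.22 and -0.47. For Dcn every mutant was above every control. The mean log2 intensity of the 10 was 9.57 to 10.02 in mutants and 10.74 to 11.46 in controls. Of 7 endothelial markers 4 fell, with a mean of 12.90 to 13.13 in mutants and 13.56 to 13.65 in controls. Vwf, Egfl7 and Pecam1 did not pass, with log2 differences of -0.38, -0.09 and -0.03. Of 6 lymphocyte markers, 2 fell, with a mean of 8.76 to 9.07 in mutants and 9.26 to 9.57 in controls. The means of these 3 lists did not overlap between the groups, and each measured marker was detected on at least 1 mutant array. Of 10 cardiac muscle markers 3 fell, with a mean of 9.22 to 10.26 in mutants and 10.85 to 12.03 in controls, and again no overlap, and the number that fell was 2 with control 1, control 2, mutant 2 or mutant 3 left out. The lymphocyte count was 1 with any mouse but control mouse 3 left out. Of 2 skeletal muscle markers Ckm, below detection on every mutant array, passed as lower (adjusted p = 0.0378), but not without background correction (0.0939), with the deposited processed values (0.174) or with control mouse 2 or any one mutant left out (0.0711 to 0.0901). The mean of both was 5.60 to 6.03 in mutants and 7.16 to 11.34 in controls. The erythrocyte marker Hba-a1 was 9.77 to 10.12 in mutants and 8.59 to 15.97 in controls. It did not pass, but passed as lower without control mouse 3. No marker of alveolar type 1 cells (5 measured), airway epithelium (6) or neutrophils and monocytes (5) passed by limma (unadjusted, 0 in each list), while 1 airway marker passed as lower without control mouse 2 and 1 neutrophil and monocyte marker without control mouse 3. The part of these shifts in the receptor results was not tested.

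**Figure D4:**
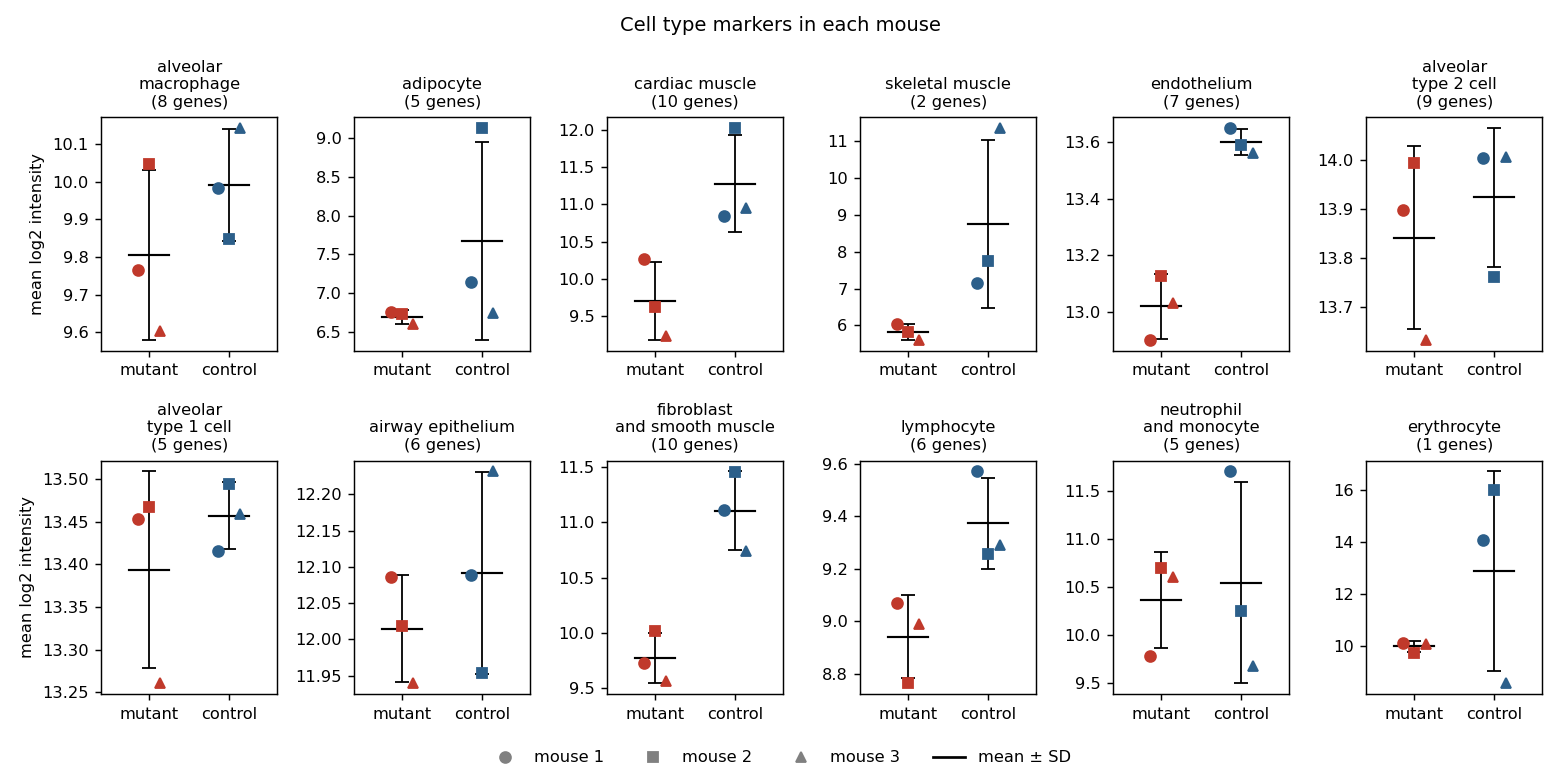
Mean normalized log2 intensity (vertical axis, a separate scale in each panel) of the measured markers of 12 cell types in each mutant (red) and control (blue) mouse, with the mean and SD of 3 mice. Endothelial, fibroblast and smooth muscle, lymphocyte and cardiac markers separate the groups, alveolar and airway epithelial and macrophage markers overlap, and control mouse 2 stands apart for adipocyte markers.

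Genes of oxidative metabolism, which ERRα and PGC-1 coactivators regulate, did not pass by their brightest probe. Of 25 genes 19 were measured and 0 passed by limma (unadjusted, 0 higher and 3 lower), where 27.2% of all named genes passed. The median log2 difference of the 19 was -0.09, while Ppargc1a rose. A second, dimmer probe of Slc25a3, the mitochondrial phosphate carrier gene, passed as lower, with a log2 difference of -0.82 (adjusted p = 0.0122), where its brightest probe differed by 0.01. Ndufa4, a subunit of cytochrome c oxidase, differed by -0.43 ± 0.13 (adjusted p = 0.0514), with 13.31, 13.40 and 13.14 in mutants, against 13.73, 13.87 and 13.55 in controls. All 3 mutants were below all 3 controls. The difference of Ndufa4 passed with an offset of 50 (0.0283), without background correction (0.0203), with a detection p below 0.01 on all arrays (0.0357), with array weights (0.0269), with all probes of a gene averaged (0.0471), with a variance trend (0.0178) and without control mouse 3 (0.0478). Ckmt2, a mitochondrial creatine kinase of striated muscle, differed by -1.41 ± 0.48 (adjusted p = 0.0705), with 9.08, 8.29 and 8.06 in mutants, against 9.47, 10.97 and 9.20 in controls. Control mouse 2 was highest for Ckmt2, as it was for the mean of the cardiac markers.

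**Figure D5:**
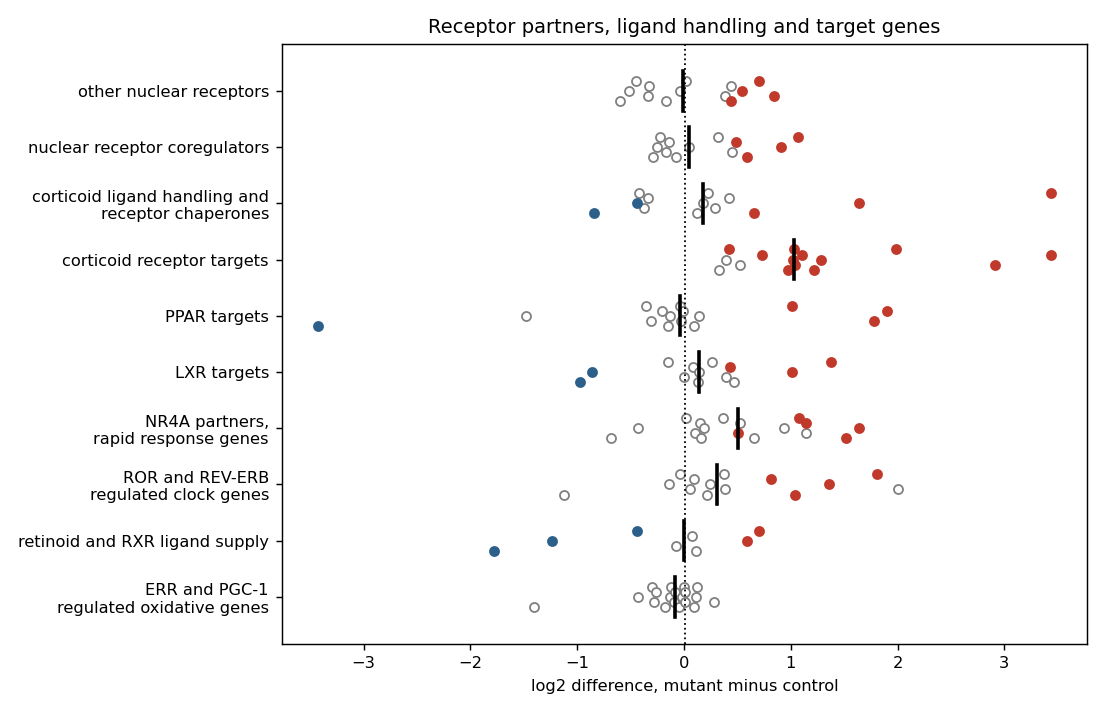
Log2 difference, mutant minus control (horizontal axis), of each measured gene of the 10 lists, one point per gene, with the list median as a black bar and the median of all genes as a dotted line. Filled points passed an adjusted p of 0.05, red higher and blue lower in mutants: corticoid receptor targets lie furthest right, with a median of 1.03, and the oxidative genes have no filled point. The lists were chosen with earlier results of these data known.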

How the data were processed

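Lung RNA of 3 mutant and 3 control mice was measured on a single Illumina bead array per mouse, from 550 ng of total RNA made into biotin-labelled cRNA, per the labels' protocols. The authors deposited an unnormalized table of 25697 probes that gives, per the file headers, each array's linear intensity and detection p-value. The submitters' processing notes list GenomeStudio 2009.2 and R 2.4.1 without a role. The sources used here name no chip for each array and no earlier background subtraction. The authors also deposited processed log2 values for 13261 probes, in which the columns of mutant mice 1 and 2 are identical. That table served only as an alternative, with 2 distinct mutants.

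The function neqc of limma 3.58.1 (R 4.3.3) was applied: it models background from the detection p-values, with 16 as its offset, then quantile-normalizes and returns log2 values. A probe was kept when at least 3 of the 6 arrays had a detection p under 0.05, which left 13361. The fit, lmFit with eBayes, contrasted mutants with controls and had no covariates; p-values were Benjamini-Hochberg adjusted over all kept probes, with a threshold of 0.05. Errors of differences are standard errors, and intervals are 95% intervals of the same fit. The platform annotation gave symbols, updated for 12490 of 12495 probes through RefSeq genes of GRCm38.p6, and 932 of the kept probes are unnamed here. For lists, a gene is represented by its brightest kept probe over all 6 arrays. 

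The members and gene lists were chosen with earlier results of these data known. Named beside the members were nuclear receptors past the threshold and the 2 with the lowest p among the rest, and from each list the 4 largest changes past the threshold or, with none, the 2 lowest p-values. Nr1d1, Nr1d2, Hsd11b1, Tgm2, Abcg1, Apoe, Srebf1, Nfil3, Dbp and the marker genes were added after their values were seen. A planned comparison of patterns with Nr3c1 and Nr3c2 was dropped because no probe is annotated to either. The fit was tested on simulated data for this comparison of 13361 probes: of 100 changes of 1 on the log2 scale 67% were recovered, and of 100 changes of 2 on the log2 scale 91%. The mouse numbers do not pair the animals: deviations of same-numbered mice correlated at -0.09, -0.01 and -0.04. Alternatives were another offset (50), uncorrected background, scaling by the median, the processed values, other filters, a variance trend, array weights, the number as a block, averaged probes and leaving out each mouse. For genes other than receptors, some of these were chosen after seeing the data, as were all for Abcg1, Tgm2, Nfil3 and the markers. Arrays have no read depth, and their number limits the precision.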

Additional observations from a re-analysis of the deposited data

How the results depend on the processing

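The calls of Rora and Nr1h3 held under all 9 alternatives and with each mouse left out, so 2 receptor probes passed throughout. Their log2 differences were 0.82 to 1.05 for Rora and -0.86 to -0.69 for Nr1h3 over those alternatives, and with a mouse left out 0.92 to 1.02 and -1.01 to -0.76. Nr4a2 and Rxra could not be fitted under the stricter detection filter, which their probes did not pass. Differences near 0 changed sign: Pparg ranged from -0.16 to 0.23 and Rxra from -0.0028 to 0.16 with a mouse left out, and Rxra was -3e-04 with the deposited processed values. All probes past the threshold numbered 3573, or 1664 to 3067 with a mouse left out (1664 on leaving out control mouse 1, 2108 for control mouse 2 and 2078 for mutant mouse 1). The other nuclear receptors that passed were 4, or 8 with array weights and 1 to 5 with a mouse left out. Coregulators were 4, or 2 to 5 with a mouse left out, ligand handling genes and chaperones 5, or 2 to 5, rapid response genes 5, or 1 to 5, clock genes 4, or 4 to 7, and retinoid genes 5, or 3 to 5. Oxidative genes were 0, or 1 without background correction or with averaged probes, and 0 to 1 with a mouse left out.

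With the mouse number as a replicate block, 2642 probes passed, the receptor probes that passed stayed at 2, the other nuclear receptors were 2 and the coregulators 2. The numbers do not pair the mice, so this block has no basis in the design. Of 679 values of 43 other named genes, 94 lost and 21 gained a call, and none changed direction. No cause of these shifts was tested. The sizes for probes near the background, such as those of Mylip, Arntl and Mt2, depended on its correction.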
